A study of Homo sapiens with 40 samples.

Results

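The messenger RNAs of the cytosolic ribosomal proteins were followed through a proximity labelling experiment in HEK293T cells, a human embryonic kidney line. Members were chosen by gene symbol alone: the symbols RPL or RPS followed by a number, with or without an A, and RPS4X, RPLP0, RPLP1, RPLP2 and RPSA. This gave 77 of the 57992 genes in the deposited count table. The cells expressed APEX2, an engineered peroxidase that turns biotin-phenol and hydrogen peroxide into a radical that tags nearby molecules with biotin. The fusion was directed to the mitochondrial matrix (MITO), to the endoplasmic reticulum membrane (ERM), to the cytosol by a nuclear export signal (NES) or to the nuclear lamina by lamin B1 (LMNB1). In s6G arms the cells took up 6-thioguanosine at 100 uM for 5 h in all, and in the s4U arm 4-thiouridine at 100 uM for the same time. Both then received biotin-phenol (0.5 mM, 30 min) and peroxide (1 mM, 1 min). APEX-only arms had biotin-phenol and peroxide without a thionucleoside, and unlabelled arms had neither thionucleoside nor biotin-phenol but the same peroxide. MITO had all 4 arms, LMNB1 had s6G, APEX-only and unlabelled arms, and ERM and NES had the s6G arm alone. Each arm gave input libraries and libraries enriched on streptavidin beads, with 2 biological replicates of each and 4 for ERM, which makes 40 libraries in 9 arms. Titles and the series design name s6G for 4 ERM and 4 LMNB1 libraries whose treatment label names s4U, and they are grouped by title here. All libraries are from polyadenylated RNA. The series design calls the replicates biological without saying that they were separate cultures, and no source read for this work says whether a construct was carried by 1 clone, so p-values measure the spread between these libraries.

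A ribosome is built from ribosomal RNA and a set of proteins that it needs in fixed numbers, and the cell keeps the supply of these proteins matched. Their mRNAs are short, abundant and long-lived, and most begin with a run of pyrimidines, the terminal oligopyrimidine (TOP) tract, through which the LARP1 and mTOR pathway sets how many of them are on ribosomes. They are translated mainly on free ribosomes in the cytosol, since their products carry no signal sequence and travel to the nucleolus for assembly.

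The start sites show what most of these genes share. RefSeq start windows of GRCh38.p14 were matched by symbol for 62 of the 77 genes, and the 10 below belong to members whose values are given later. Each is the sense strand, which reads like the mRNA, over the 15 bases before and the 15 bases from the annotated start. It is written 5′ to 3′, and capitals mark the longest unbroken run of C or T in the window.
RPL39: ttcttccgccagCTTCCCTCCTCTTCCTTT
RPL34: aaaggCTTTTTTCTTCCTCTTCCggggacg
RPS21: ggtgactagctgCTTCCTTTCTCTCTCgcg
RPL36A: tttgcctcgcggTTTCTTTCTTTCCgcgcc
RPLP1: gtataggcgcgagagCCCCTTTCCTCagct
RPLP0: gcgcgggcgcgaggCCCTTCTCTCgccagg
RPSA: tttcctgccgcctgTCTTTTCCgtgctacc
RPL11: cgCCTCCTggcccataaggccctcggccgg
RPL15: ggcgctggggcctgctggaggagCTTCacg
RPS29: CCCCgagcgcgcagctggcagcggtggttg
The windows lie at chrX:119791616-119791645 on the minus strand (RPL39), chr4:108620561-108620590 on the plus strand (RPL34) and chr20:62387088-62387117 on the plus strand (RPS21). RPL36A is at chrX:101390996-101391025 on the plus strand, RPLP1 at chr15:69452803-69452832 on the plus strand and RPLP0 at chr12:120201097-120201126 on the minus strand. RPSA is at chr3:39406705-39406734 on the plus strand, RPL11 at chr1:23691764-23691793 on the plus strand, RPL15 at chr3:23916530-23916559 on the plus strand and RPS29 at chr14:49598696-49598725 on the minus strand.

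A start on C followed by C or T, in a run of at least 5 bases, was found at 42 of the 62 annotated starts (67.7%) and at 4.04% of all 27305 promoters in the same table. Only the sense strand was searched. The longest run of C or T within 20 bases either side of the start was at least 8 bases in 52 of 62 members (83.9%) and in 17.3% of all promoters. Its median was 11 bases for the members and 5 bases for all promoters. In the printed windows the run is 18 bases long in RPL39 and RPL34, 15 in RPS21 and 13 in RPL36A, while RPL15 and RPS29 hold a run of 4 bases. The runs of RPL39 and RPS29 reach an end of the printed window, so they may be longer than shown. The annotated start is 1 position per gene, so no match says only that these letters are not in this window.

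**Figure D1:**
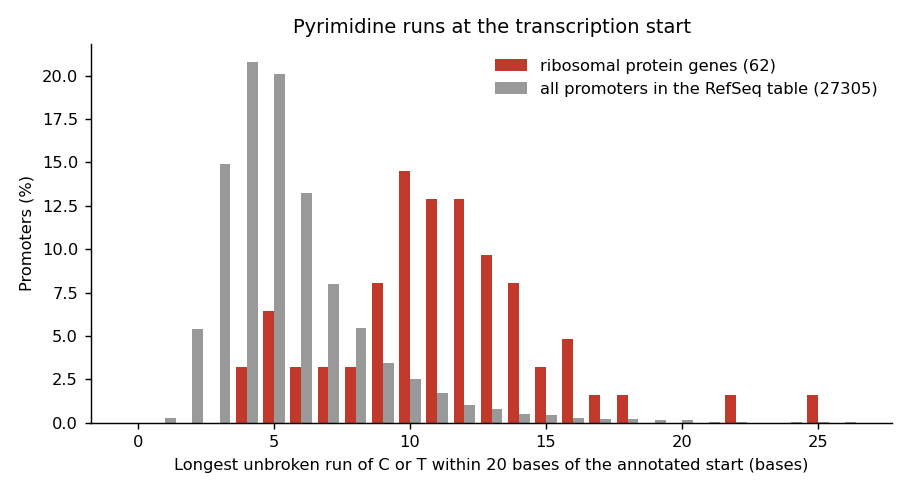
Longest unbroken run of C or T within 20 bases of the annotated start (bases, horizontal) against the percentage of promoters (vertical) for the 62 ribosomal protein genes with a RefSeq window (red) and for all 27305 promoters in that table (grey). The red bars centre on a median of 11 bases and the grey bars on a median of 5 bases.

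Library totals ran from 123341 counts (replicate 1 of the enriched unlabelled MITO arm) to 14496768 (replicate 4 of the enriched ERM arm). ERM replicates 3 and 4 were deeper than ERM replicates 1 and 2, at 12382757 to 14496768 counts against 5342584 to 6664875. The HEK293T genes LIN28B, IGF2BP1 and NEFM had counts in every library, while INS was at 0 in 40 libraries, CD3E and HBB at 0 in 37 and PTPRC at 0 in 33. After edgeR's filter on low counts, 74 members were tested among 15151 genes of the MITO libraries, 75 among 15619 genes of the ERM and NES libraries and 75 among 16525 genes of the LMNB1 libraries.

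A few members were hardly counted. RPS25 had 6 counts over all 40 libraries and RPS18 had 34, and neither was tested anywhere. RPL7A, with 267 counts, was tested outside the MITO libraries only. RPS10 (2135 counts), RPL17 (2603), RPS9 (3059) and RPL36A (7618) were thin beside RPLP0 with 393363 counts. RPS10, RPL17 and RPL36A each overlap an annotated read-through gene (RPS10-NUDT3, RPL17-C18orf32 and RPL36A-HNRNPH2) that is listed at 0 in every library. In RefSeq, 29 of the 77 genes hold a small nucleolar RNA in their span and 23 overlap another gene. No source read for this work gives the strand setting or annotation of the counting, so reads of overlapping genes cannot be told apart. Symbols of ribosomal protein pseudogenes, which can share reads with their parents, held between 4.28 and 6.79 counts per 100 member counts as group means.

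Levels per length are known for the MITO groups from the authors' TPM, given as the mean over their 4 input groups. RPS2 was highest at 10445 TPM, followed by RPL8 at 6975 and RPS15 at 3939. RPL41, RPLP1 and RPLP0 were at 3413, 3216 and 3148 TPM and RPSA at 2198. RPL39 was at 1126 TPM, RPS29 at 103 and RPL36A at 31.7. RPS25 is listed at 0, RPS18 at 0.273 and RPS9 at 2.06. The order of these levels thus ends with the thinly counted genes.

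The share of each library's counts that fell on ribosomal protein mRNAs went down on the beads in the s6G arms of all 4 constructs. In ERM inputs the share was 10.2%, 9.97%, 11.5% and 12.6%, and in the matching enriched libraries 3.44%, 4.23%, 4.70% and 4.99%. In NES inputs it was 7.79% and 9.23%, and in the enriched libraries 3.55% and 3.97%. The groups do not overlap in either construct. LMNB1 s6G inputs held 9.40% and 8.23% and the enriched libraries 7.87% and 5.496%, again without overlap. In the unlabelled arms the order was the opposite: LMNB1 inputs held 7.53% and 6.87% and the bead libraries 8.21% and 12.4%, and MITO inputs held 7.05% and 6.75% and the bead libraries 9.92% and 9.34%. MITO shares need a second denominator, because RNA encoded by mitochondrial DNA took 47.2% ± 15.7 (SD, n = 2) of the enriched s6G libraries and 5.72% ± 0.255 (SD, n = 2) of their inputs. Of all other counts, the members held 8.92% ± 1.28 in the enriched and 9.93% ± 0.399 in the input libraries (SD, n = 2). By library these were 8.01% and 9.82% on the beads and 9.65% and 10.2% in the inputs, which overlap. In the MITO s4U arm the members held 7.22% and 7.34% of other counts on the beads and 9.76% and 8.59% in the inputs. These are shares of counts in bulk libraries, in which fewer cells with an RNA and less of it per cell cannot be told apart.

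**Figure D2:**
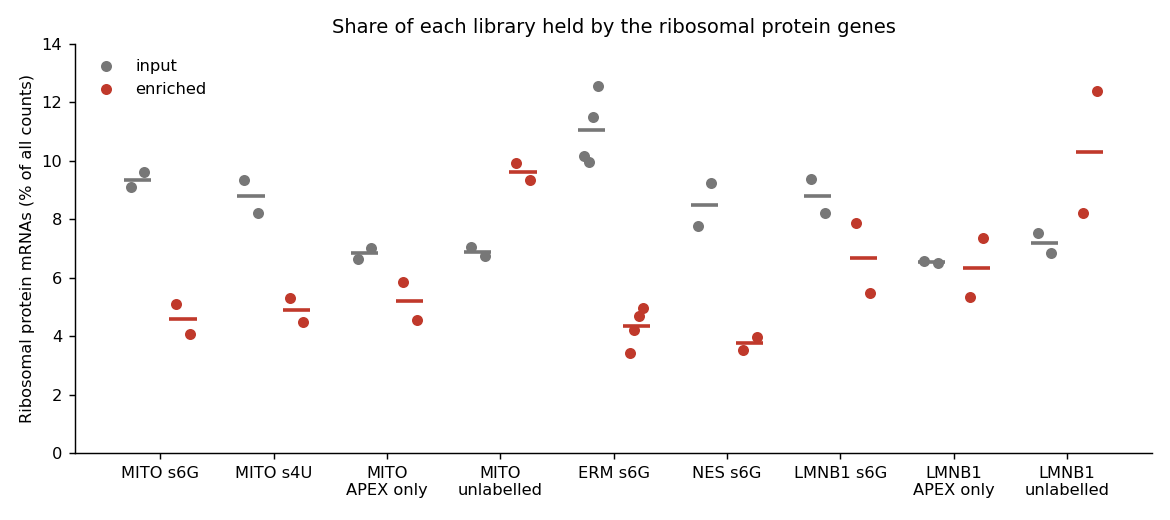
Percentage of each library's counts that fell on the 77 ribosomal protein genes (vertical) in the 9 arms (horizontal), with a point per library, grey for input and red for enriched, and a bar at the group mean. The 4 enriched ERM libraries lie between 3.44% and 4.99%, below their inputs, and the bead libraries of both unlabelled arms lie above theirs.

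On the ERM beads every tested ribosomal protein mRNA was lower than in input. All 75 of 75 tested members fell (edgeR, adjusted p of at most 0.00399), while 28.9% of all tested genes were called lower. The 4 enriched libraries lay below the 4 inputs for all 75, against 26% of all genes. The median log2 fold change of the members was -1.67, and that of all tested genes 0.11. The members ranged from -2.26 to -0.89, which placed them between the 0.512th and the 19.1th percentile of all genes. In each of the 4 replicate pairs, all 75 members lay below the median of all genes.

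The structural proteins of the large subunit include both ends of that range. RPL39, a small protein that lines the peptide exit tunnel, had 951, 1053, 1415 and 1543 CPM (counts scaled by library total and edgeR's TMM factor) in the ERM inputs and 204, 315, 266 and 254 CPM in the enriched libraries. The enriched libraries are all below the lowest input, and the log2 fold change was -2.26 ± 0.163 (SE, n = 4 per group; edgeR adjusted p = 1.97e-09). RPL15, a core protein of the large subunit, lost less: 2159, 2357, 2613 and 3030 CPM in the inputs and 957, 1301, 1254 and 1280 CPM on the beads, or -1.08 ± 0.140 (edgeR adjusted p = 1.76e-06). RPL36A had the smallest change, from 27.9, 28.2, 26.2 and 28.0 CPM to 14.5, 16.6, 15.7 and 13.02 CPM, or -0.89 ± 0.137 (edgeR adjusted p = 1.58e-05). Its libraries also do not overlap. RPL5 and RPL11, which sit together with the smallest ribosomal RNA and also bind MDM2, fell by 1.44 ± 0.150 and 1.67 ± 0.168 on the log2 scale.

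The 3 genes of the P stalk, which recruits translation factors to the large subunit, all fell. RPLP1 had 1994, 1982, 2255 and 2670 CPM in the ERM inputs and 349, 491, 588 and 610 CPM on the beads. Every bead library lies below every input. The log2 fold changes were -2.13 ± 0.163 for RPLP1, -2.11 ± 0.174 for RPLP0 and -1.96 ± 0.148 for RPLP2.

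The 29 tested genes of the small subunit had a median log2 fold change of -1.68 and the 46 of the large subunit -1.64. RPSA, whose protein is also known as the laminin receptor precursor, had 2887, 2873, 3881 and 4533 CPM in the ERM inputs and 621, 731, 978 and 1048 CPM on the beads. The change was -2.07 ± 0.182 on the log2 scale. RPS4X, the X-linked form of its protein, fell by 1.83 ± 0.149, RPS3 by 1.88 ± 0.198, RPS6, a target of S6 kinase, by 1.63 ± 0.145 and RPS29 by 1.63 ± 0.154. RPS27A, which is made as a fusion to ubiquitin, fell by 1.52 ± 0.138. RPL41, the smallest protein of the set, fell by 1.79 ± 0.154.

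The cytosolic NES construct gave almost the same picture. In NES, 74 of 75 tested members fell, while 26.4% of all tested genes were called lower. The median of the members was -1.29 and that of all genes 0.01. Both enriched libraries lay below both inputs for all 75 members, against 39.5% of all genes (40.1% had them above). RPL15 was the member that missed the threshold, with 1363 and 1684 CPM in the inputs and 1204 and 1152 CPM on the beads, or -0.37 ± 0.196 on the log2 scale (SE, n = 2 per group; edgeR adjusted p = 0.117). Blocking on the replicate number called it lower at -0.36 (edgeR adjusted p = 0.0107), which made 75 of 75, and in a fit of the NES libraries alone it was also called (edgeR adjusted p = 0.0175). Leaving out NES input replicate 2 gave -0.17. RPL15 overlaps NKIRAS1, whose log2 fold change was 1.52 ± 0.249 in NES and 0.83 ± 0.166 in ERM, and the part of that overlap in the value was not tested. RPLP2 (-1.79 ± 0.208) and RPLP0 (-1.78 ± 0.244) were again low, and RPL7 (-0.83 ± 0.220) and RPL13A (-0.84 ± 0.252) were, after RPL15, nearest to 0. RPL7A had the lowest value, -3.10 ± 0.745, from 2 counts in each enriched library and 7 and 17 counts in the inputs.

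RPL36A stood apart from the shared order of ERM and NES. In NES it had 49.9 and 42.7 CPM in the inputs and 11.3 and 7.96 CPM on the beads, or -2.26 ± 0.204 (edgeR adjusted p = 7.22e-08), the lowest member after RPL7A, whereas in ERM it was the least reduced. The difference of the 2 log2 fold changes was 1.37 ± 0.244 (edgeR adjusted p = 0.0909), which missed the threshold. Blocking on the replicate number gave 1.38 (edgeR adjusted p = 0.00275). The thinly counted RPL7A had a larger but less certain difference, 1.49 ± 0.899 (edgeR adjusted p = 0.476). RPS10 (0.40 ± 0.368) and RPL17 (0.20 ± 0.533) were also above 0. RPL36A was lower in the ERM than in the NES inputs (26.2 to 28.2 against 42.7 to 49.9 CPM) and higher on the ERM beads (13.02 to 16.6 against 7.96 to 11.3 CPM).

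Across all members the ERM change was larger than the NES change, but no member's difference was called. The median difference, ERM minus NES, was -0.39, with 71 of 75 values below 0, and the median over all genes was -0.04. The ERM inputs lay above the NES inputs, at median log2 differences of 0.48 for the large and 0.43 for the small subunit. The part of the inputs in the difference between the constructs was not tested. edgeR called 0 of 75 members, with 1 higher and 6 lower at an unadjusted p under 0.05, and DESeq2 called 1. Both fold changes come from 1 fit, with shared scaling and spread, and have no library in common. Blocking on the replicate number raised this to 17 members in edgeR, 16 of them lower in ERM and RPL36A higher. With ERM replicates 3 and 4 alone 34 members were called and with replicates 1 and 2 alone 3, and the part of depth in this was not tested. The shares of all genes called under the block and in these splits are not given here. Across the 75 members, the ERM and NES log2 fold changes correlated with Pearson r = 0.50 and Spearman rho = 0.73, where the points share scaling and base composition.

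**Figure D3:**
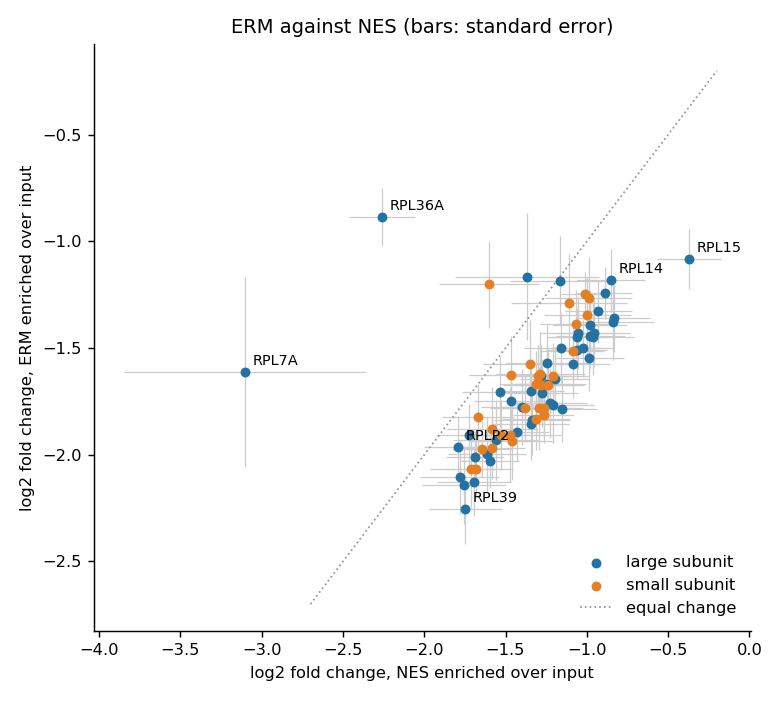
Log2 fold change of enriched over input in NES (horizontal) and in ERM (vertical) for the 75 tested ribosomal protein genes, blue for the large and orange for the small subunit, with standard errors as bars and a dotted line at equal change. Nearly all points lie below the line, RPL36A lies far above it at -2.26 in NES and -0.89 in ERM, and RPL15 lies at the right edge at -0.37 in NES. The thinly counted RPL7A also lies far above the line.

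At the lamina the loss was smaller and uneven. In the LMNB1 s6G arm, 12 of 75 members fell and 1 rose, while 7.64% of all tested genes were called lower and 5.37% higher. The median of the members was -0.50 and that of all genes 0.13, and 64 of 75 values were below 0. RPS2 had 6298 and 5018 CPM in the inputs and 3171 and 2011 CPM on the beads, or -1.13 ± 0.236 (SE, n = 2 per group; edgeR adjusted p = 0.00818). RPLP0 fell from 2876 and 2387 CPM to 1509 and 907 CPM, or -1.12 ± 0.255. The bead libraries lie below the inputs for both genes. RPS3A (-1.19 ± 0.363), RPL28 (-1.10 ± 0.226), RPL15 (-1.09 ± 0.304), RPSA (-1.06 ± 0.261), RPL13 (-1.02 ± 0.269), RPL29 (-1.02 ± 0.268), RPL10 (-0.91 ± 0.248), RPL8 (-0.86 ± 0.234) and RPL4 (-0.80 ± 0.231) also fell. RPLP1 and RPLP2, at -0.69 ± 0.297 and -0.66 ± 0.271, did not pass the test, and RPS29 was at 0.08 ± 0.309. Under the replicate block 18 fell and 1 rose, a count given here without the share of all genes. The count rests on single libraries: without enriched replicate 1 it was 21, without enriched replicate 2 it was 2, without input replicate 1 it was 3 and without input replicate 2 it was 7. Without the unlabelled arm, 23 members were called.

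RPL36A went the other way at the lamina. It had 52.1 and 33.5 CPM in the LMNB1 s6G inputs and 137 and 122 CPM on the beads, so both bead libraries are above every other library of the 40 for this gene. The log2 fold change was 1.60 ± 0.291 (SE, n = 2 per group; edgeR adjusted p = 0.00386), and without input replicate 2 it was 1.19 and no longer called. The raw counts behind it were 198 and 159 in the inputs and 1002 and 1138 on the beads. In the LMNB1 APEX-only arm RPL36A had 25.1 and 16.98 CPM in the inputs and 52.9 and 60.1 CPM on the beads, or 1.43 ± 0.295 (edgeR adjusted p = 0.0390), the only member called in that arm, where 0.411% of all genes were called higher and 1.02% lower. There 10 members had both bead libraries above both inputs and 20 had both below, against 28.4% and 25% of all genes. That call was lost when any 1 of the 4 libraries was left out, and with the replicate block 1 member rose and 3 fell, RPL8 and RPS2 among them. In the unlabelled LMNB1 arm the gene had 29.6 and 25.2 CPM in the inputs and 29.7 and 43.2 CPM on the beads, which overlap, at 0.44 ± 0.302 (edgeR adjusted p = 0.479). RPL36AL, the near-identical paralogue that can share reads with RPL36A, was at 0.44 ± 0.281 in the LMNB1 s6G arm (edgeR adjusted p = 0.333). HNRNPH2, the partner of the read-through gene, was at -0.05 ± 0.195 there.

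Between LMNB1 and NES, tested in a fit of all 40 libraries, 11 of 75 members were higher at the lamina and none lower, while 7.04% of all 19314 tested genes were called higher and 11.3% lower. The difference of log2 fold changes was 3.73 ± 0.355 for RPL36A (edgeR adjusted p = 2.47e-08), 2.03 ± 0.682 for RPS10 and 1.63 ± 0.433 for RPL26. RPS21 (1.51 ± 0.452), RPL30 (1.40 ± 0.373), RPL38 (1.28 ± 0.378), RPL23A (1.22 ± 0.377), RPL31 (1.17 ± 0.390), RPL37A (1.09 ± 0.388), RPS28 (1.09 ± 0.370) and RPS12 (1.07 ± 0.371) were the other 8. RPL17 was at 1.74 ± 0.640 and missed the threshold (edgeR adjusted p = 0.0522). The 3 members with a read-through partner, RPL36A, RPS10 and RPL17, ranked 1, 2 and 4 of 75 in this difference. All 3 are also thinly counted, and the part of the overlap or of the low counts in these values was not tested. The median difference of the members was 0.72 and that of all genes 0. Under the replicate block 31 members were higher and 1 lower, a count given here without the share of all genes. The count was 2 without LMNB1 enriched replicate 1, 28 without LMNB1 enriched replicate 2 and 3 without LMNB1 input replicate 2. It was 6 without NES enriched replicate 1, 5 without NES enriched replicate 2, 7 without NES input replicate 1 and 6 without NES input replicate 2.

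**Figure D4:**
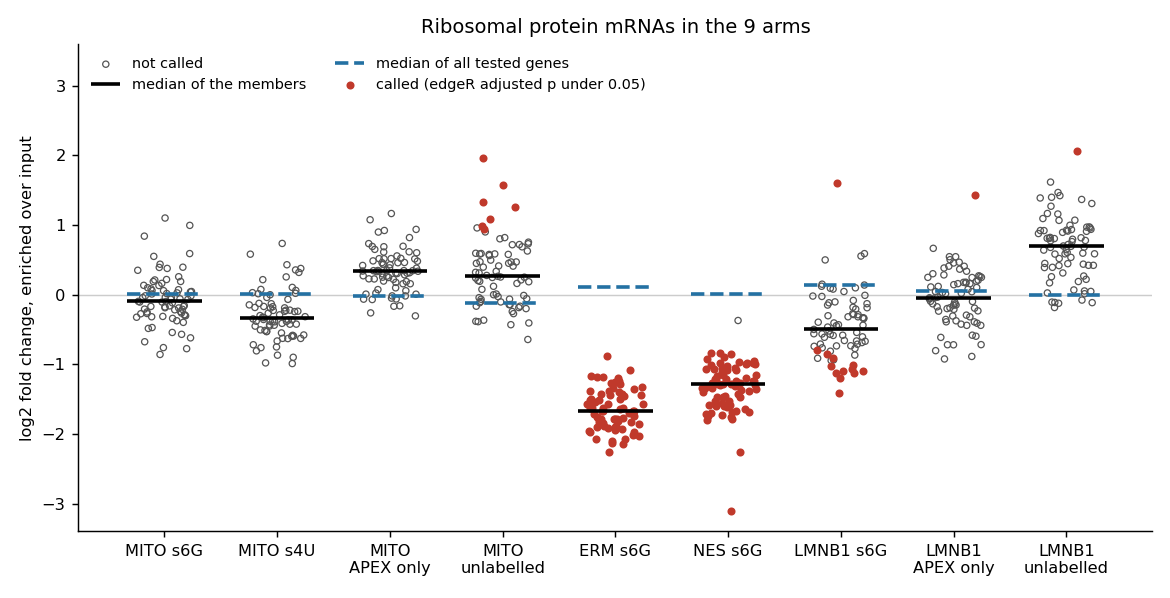
Log2 fold change of enriched over input (vertical) for each tested ribosomal protein gene in the 9 arms (horizontal), red where called at an edgeR adjusted p under 0.05 and open grey otherwise, with a black bar at the members' median and a blue dashed bar at the median of all tested genes. The members sit at medians of -1.67 in ERM, -1.29 in NES and -0.50 in LMNB1 s6G, and at 0.70 in the unlabelled LMNB1 arm.

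In bead libraries without any label some ribosomal protein mRNAs made up a larger share of the counts than in input. In the unlabelled MITO arm 7 of 74 tested members rose and none fell, while 5.78% of all tested genes were called higher and 4.09% lower. Of the 74, 33 had both bead libraries above both inputs and 5 had both below, against 18.4% and 30% of all genes. RPS29, a zinc-binding protein of the small subunit, had 315 and 282 CPM in the inputs and 1614 and 736 CPM on the beads. Both bead libraries lie above both inputs, and the log2 fold change was 1.96 ± 0.333 (SE, n = 2 per group; edgeR adjusted p = 0.00826). RPL34 went from 347 and 258 CPM to 1143 and 675 CPM, or 1.57 ± 0.315 (edgeR adjusted p = 0.0123), and RPL39 from 670 and 529 CPM to 1729 and 1291 CPM, or 1.33 ± 0.286. RPS21 (1.25 ± 0.279), RPS13 (1.08 ± 0.286), RPL37A (0.99 ± 0.265) and RPS27A (0.94 ± 0.288) also rose, and RPL26 and RPL4 were lowest at -0.64 ± 0.393 and -0.43 ± 0.271. The median of the members was 0.27 and that of all genes -0.12. Bead replicate 1 of this arm held 123341 counts in all and replicate 2 held 842177. The count was 4 without bead replicate 1 and 0 without either input library, while the replicate block gave 16 members that rose. No share of all genes is given here for the block in this arm. RPS29 spans the locus of RN7SL1 in RefSeq, and the part of that overlap in its value was not tested.

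The unlabelled LMNB1 arm ranked the members in a related order, though not RPL26, which was at 0.88 ± 0.244 there. RPS29 had 385 and 346 CPM in its inputs and 784 and 1453 CPM on the beads, or 1.62 ± 0.317 (edgeR adjusted p = 0.0899), and RPL34 422 and 308 CPM and then 703 and 1310 CPM, or 1.47 ± 0.327 (edgeR adjusted p = 0.104). The bead libraries lie above the inputs for both genes although neither was called. In this arm 1 of 75 members was called higher by edgeR and none lower, while 0.0242% of all tested genes were called higher and 0.0121% lower. The replicate block called 0. The median of the members was 0.70 and that of all genes -0.01, and 50 of 75 members had both bead libraries above both inputs, against 16.1% of all genes. The 2 bead libraries of this arm differed, with a median over the members of 0.18 in pair 1 and 1.01 in pair 2, and 27 members were called without bead replicate 1, 2 without bead replicate 2 and 0 without either input library. Across the 74 members tested in both, the log2 fold changes of the MITO and LMNB1 unlabelled arms correlated with Pearson r = 0.69 and Spearman rho = 0.71, where the points share base composition and length but no library.

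Against the unlabelled arm, the LMNB1 s6G change was lower for almost the whole set. The difference of log2 fold changes had a median of -1.12 over the members and 0.03 over all genes, with 73 of 75 values below 0. edgeR called 3 of 75 lower, while 1.19% of all genes were called lower, with RPL39 (-2.22 ± 0.514) and RPL34 (-2.03 ± 0.457) among them. RPL39 had 1058 and 932 CPM in the s6G inputs and 611 and 422 CPM on the s6G beads, but 794 and 595 CPM in the unlabelled inputs and 1018 and 2324 CPM on the unlabelled beads. DESeq2 called 43 members lower, with 4.62% of all genes lower in that fit, and the replicate block 16, with 2.59%. The count moved with single libraries, being 51 without unlabelled bead replicate 1, 1 without unlabelled bead replicate 2, 16 without s6G bead replicate 1 and 0 without s6G bead replicate 2 or without any 1 of the 4 inputs. The unlabelled beads also serve as the reference for any other LMNB1 arm, and for APEX-only the median difference was -0.74 with none called by edgeR (1 higher and 19 lower at an unadjusted p under 0.05) and 1 by DESeq2.

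**Figure D5:**
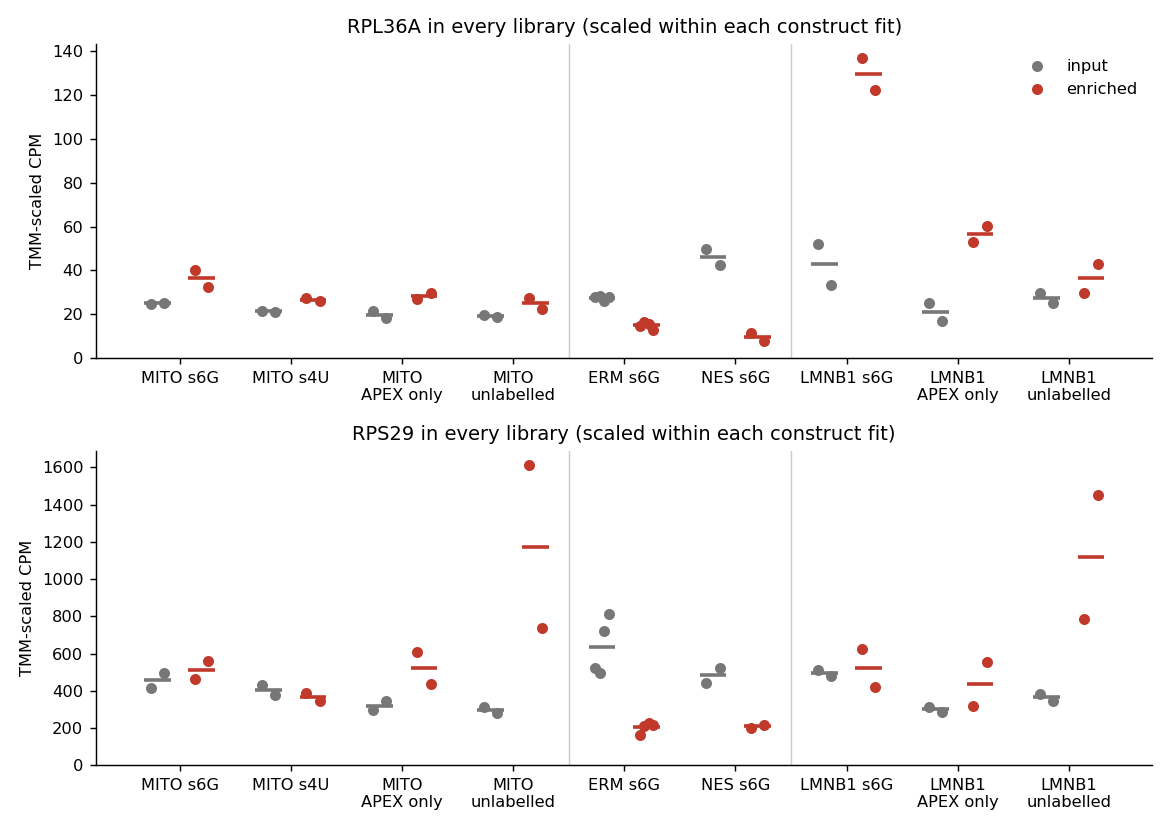
TMM-scaled CPM (vertical) of RPL36A (top) and RPS29 (bottom) in every library of the 9 arms (horizontal), grey for input and red for enriched, with bars at group means; grey lines separate libraries that were scaled in separate fits. RPL36A is at 137 and 122 CPM on the LMNB1 s6G beads and at most 60.1 CPM elsewhere, and RPS29 is highest on the beads of the unlabelled MITO and LMNB1 arms, at up to 1614 CPM.

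In the labelled MITO arms edgeR called none of the 74 tested members. Of all tested genes, 0.29% were called higher and 0.0264% lower in the s6G arm, 0.112% and 0% in the s4U arm, and 0.251% and 0.0198% in the APEX-only arm. Without overlap between beads and inputs there were 11 members higher and 29 lower in s6G, against 19% and 21.8% of all genes, 3 and 36 in s4U, against 17.3% and 19.7%, and 44 and 1 in APEX-only, against 20.7% and 21.5%. At an unadjusted p under 0.05 there were 3 higher and 5 lower in s6G, 14 lower in s4U and 10 higher in APEX-only. DESeq2 called 4, 5 and 6, and edgeR with the replicate block called 5, 5 and 6. The shares of all genes called in those fits are not given here, so these counts show only how the calls depend on the setting. Scaling by total counts gave 54, 9 and 2 members, all lower, with 18.3%, 0.746% and 7.27% of all genes called lower. The medians of the members were -0.10 in s6G, -0.34 in s4U and 0.34 in APEX-only, beside all-gene medians of 0.01, 0.01 and -0.01. The APEX-only median differed between its pairs, at 0.60 and 0.04. RPL11 was highest in s6G, with 990 and 1009 CPM in the inputs and 2118 and 2170 CPM on the beads, or 1.10 ± 0.311 (SE, n = 2 per group; edgeR adjusted p = 0.218; 0.00235 with the replicate block). Its libraries do not overlap. RPL22, whose protein also binds viral and cellular RNA, had 549 and 475 CPM and then 882 and 952 CPM, or 0.84 ± 0.273. RPL17 lay between them at 0.99. RPSA was lowest, from 2138 and 1974 CPM to 1125 and 1143 CPM, or -0.86 ± 0.307, and RPLP0 was at -0.76 ± 0.261.

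Across the 74 members the s6G and s4U log2 fold changes of MITO correlated with Pearson r = 0.86 and Spearman rho = 0.88, where the points share scaling and base composition but no library. The s6G values correlated with those of APEX-only at r = 0.71 and with those of the unlabelled arm at r = 0.20. RPL11 and RPL22 were also in the top 3 of s4U (0.58 ± 0.308 and 0.43 ± 0.272) and of APEX-only (1.08 ± 0.311 and 1.17 ± 0.275), and RPSA and RPLP0 were among the lowest 3 in both, at -0.99 ± 0.308 and -0.90 ± 0.261 in s4U. RPL17, at 0.99 in s6G, was at -0.16 in APEX-only. The replicate block called RPLP0 and RPSA lower in s6G and in s4U. The s6G change minus the APEX-only change had a median of -0.47 over the members and the s4U change minus the APEX-only change -0.70, with 69 of 74 values below 0 in each, and edgeR called none (0 at an unadjusted p under 0.05 for s6G and 12 lower for s4U). These differences share the APEX-only libraries. The s6G inputs lay above the APEX-only inputs, at medians of 0.63 for the large and 0.60 for the small subunit. For s4U inputs these medians were 0.47 and 0.45, and the part of the inputs in these differences was not tested. The s6G change minus the s4U change had a median of 0.23, which became -0.23 when libraries were scaled by total counts. That scaling moved the median of all genes from 0.01 to -0.87 in the s6G arm, and relative to it the members were 0.14 lower. RPL41 in the s6G arm went from 0.07 to -0.85 under that scaling, near the shifted median of all genes. Against the unlabelled arm the medians were -0.37 for s6G, -0.60 for s4U and 0.03 for APEX-only, with none called by edgeR (17, 23 and 3 lower at an unadjusted p under 0.05, and 1, 0 and 1 higher) and 11, 21 and 0 called by DESeq2. In the s6G difference 0.277% of all genes passed as higher and 0.099% as lower. The s4U difference had 0.191% and 0.0726%, and that of APEX-only 0.033% and 0.0066%. The replicate block called 10, 18 and 3. Of these, RPL11 was higher in the s6G (1.24) and APEX-only (1.21) differences, and the other calls were lower. No share of all genes is given here for DESeq2 or the block, so these counts show only how the calls depend on the setting.

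Inputs with a thionucleoside lay above inputs without for most ribosomal protein mRNAs, although edgeR called none of them without the replicate block. In MITO, the s6G inputs lay above the APEX-only inputs for 71 of 74 members, against 21.8% of all genes, with a median log2 difference of 0.62 and an all-gene median of 0.00. In LMNB1 they did so for 72 of 75, against 27.6% of all genes, with a median of 0.63. The s4U inputs of MITO were above APEX-only for 66 of 74 members, against 18.5%, at a median of 0.46. RPLP0 had 2457 and 2208 CPM in the MITO s6G inputs and 1368 and 1571 CPM in the APEX-only inputs, or 0.67 ± 0.260, and RPS4X had 2975 and 2842 CPM and then 1745 and 2074 CPM, or 0.61 ± 0.261. The groups do not overlap for either gene. No member was called by edgeR in these 3 comparisons, where 0.0528% (MITO s6G), 0.109% (LMNB1 s6G) and 0% (MITO s4U) of all genes were called higher. At an unadjusted p under 0.05 there were, in that order, 41, 39 and 4 members, all higher, and DESeq2 called 4 in LMNB1 and 0 in the others. Blocking on the replicate number called 72 members higher in LMNB1 s6G, with 16.8% of all genes called higher, and 0 in both MITO comparisons; the labels tie no numbers across arms. The 2 MITO comparisons share the APEX-only inputs. Unlabelled inputs were closer to APEX-only, with medians of 0.08 in MITO and 0.19 in LMNB1 and 3 of 74 and 42 of 75 members not overlapping and higher, against 8.98% and 11.2% of all genes. The replicate block called 5 members higher and 1 lower in the unlabelled LMNB1 inputs, a count given here without the share of all genes. The TOP translation factors had medians of 0.47 (MITO s6G), 0.26 (MITO s4U) and 0.30 (LMNB1 s6G) in the same inputs, with 0 called.

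ERM inputs also held more than NES inputs, with a median log2 difference of 0.46. RPL29 was higher (0.74 ± 0.170; edgeR adjusted p = 0.0481) and RPL36A lower (-0.75 ± 0.160; edgeR adjusted p = 0.0372), while 0.282% of all tested genes were called higher and 0.595% lower. Both calls were lost when any 1 of the 6 inputs was left out. With the replicate block 12 members were higher and 1 lower, a count given here without the share of all genes. ERM replicates 3 and 4 alone gave 72 calls and replicates 1 and 2 alone gave 14.

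The genes around the ribosome differed among themselves in the same comparisons. FAU, made as a fusion to a ubiquitin-like protein, and RACK1, a scaffold on the small subunit, are ribosomal proteins whose symbols the rule does not match. Both fell in ERM (-1.43 ± 0.211 and -1.87 ± 0.173) and in NES (-1.18 ± 0.300 and -1.56 ± 0.243). Translation factors with TOP mRNAs fell in 11 of 13 cases in ERM, with none higher, at a median of -1.59, and in 9 of 13 in NES, where EIF4A2 rose. PABPC1, the poly(A) binding protein, was the lowest of them at -2.33 ± 0.121 in ERM, -1.99 ± 0.170 in NES and -1.80 ± 0.172 in LMNB1 s6G. In the LMNB1 s6G arm 9 of 13 fell and EIF4A2 rose. The nascent chain complex genes NACA and BTF3 fell in ERM (-1.13 ± 0.149 and -1.29 ± 0.140).

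Ribosome biogenesis factors and mitochondrial ribosomal proteins had calls in both directions in ERM and NES, where 34.3% and 28.7% of all genes were called higher and 28.9% and 26.4% lower. Of 26 biogenesis factors, 10 rose and 5 fell in ERM (median 0.18), 8 rose and 6 fell in NES (median 0.03), and 5 rose and none fell in LMNB1 s6G (median 0.55). RRS1, BYSL and POLR1B were highest in ERM at 1.27 ± 0.175, 1.24 ± 0.100 and 1.18 ± 0.104, and NOP56, GNL3 and POLR1B highest in LMNB1 s6G at 1.15 ± 0.182, 1.13 ± 0.263 and 1.09 ± 0.259. The 75 tested mRNAs of mitochondrial ribosomal proteins, which are encoded in the nucleus and translated in the cytosol like the members, split into 16 higher and 36 lower in ERM (median -0.40) and 18 higher and 23 lower in NES (median -0.11). Of the 106 tested pseudogenes, 73 fell and 6 rose in ERM, and reads shared with their parents cannot be told apart from their own. Of 7 tested paralogues, RPL7L1, which works in ribosome assembly, rose (0.93 ± 0.104) and 5 fell in ERM, among them RPL39L (-1.33 ± 0.203) and RPL36AL (-0.34 ± 0.136).

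The authors' deposited tables can be set beside these values. In the authors' deposited table for ERM over NES, 59 members had a positive and 17 a negative log2 ratio. Their median was 0.10, beside 0.14 for all genes there, so the positive signs do not place the members above the typical gene. The share of all genes with a positive ratio is not given here. At an unadjusted p under 0.05, 2 members were positive, as were 4.52% of all genes with a p in that table. The header does not say which libraries that ratio compares. In the authors' deposited table for LMNB1 s6G, 30 members were lower and 1 higher at an adjusted p under 0.05, with a median of -0.65, and RPL36A was at 1.44. Of all genes with an adjusted p in the authors' deposited table, 14.7% were lower and 7.29% higher. For LMNB1 APEX-only the authors' deposited table had 10 lower and 2 higher, with RPL36A at 1.39, and 12.3% of all genes lower and 4.62% higher.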

How the data were processed

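Gene counts were deposited by the authors as whole numbers per Ensembl gene. The submitters' processing notes name GRCh38, the aligner HISAT2 2.1.0 and the counter HTSeq 0.7.2, besides DESeq2, SAMtools and deepTools 2.5.3. Annotation and strand setting: not given in the sources used here. The authors' second table holds log2(TPM + 1) per MITO group, in which the TPM of both replicates are summed, and TPM here are the mean of the replicates. The authors also deposited log2 fold changes and p-values for ERM over NES (unadjusted) and LMNB1 (adjusted), which are quoted and not used.

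The tests are edgeR's (version 4.0.16, R 4.3.3): robust quasi-likelihood fits of group means (TMM scaling, filterByExpr with a minimum count of 10 and total of 15, Benjamini-Hochberg over all tested genes, called at 0.05) in 3 fits: 16 MITO, 12 ERM and NES, and 12 LMNB1 libraries. LMNB1 against NES used all 40. Arms were compared by interaction terms. A log2 fold change is given ± its standard error. The code was tested on simulated counts. The series design ties each enriched library to the input of its number as 1 biological replicate, and deviations of pairs correlated with r from 0.0409 to 0.635, so the replicate block is printed where it changes a call or moves a count by over 1.5 times.

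Members and gene lists were chosen with earlier results of these data known. In each comparison the 3 highest and 3 lowest members, the P stalk genes, RPSA, RPS4X, RPS27A, RPS29, RPL41, FAU, RACK1, and up to 3 called genes per list are named; other genes were named after their values were seen, and some genes that this rule picks are not reported here. Alternatives were RLE scaling, total counts, TMM without the members, no filter, DESeq2 1.42.0, the replicate block, only the compared libraries, and each replicate left out. Leaving out the unlabelled arm and splitting ERM by depth were chosen after seeing the data. Where a count under such a setting, or at an unadjusted p, has no share of all genes beside it, it is not read as a result about the members.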

Additional observations from a re-analysis of the deposited data

Results flagged for a closer look

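Among the 4 ERM libraries of a group, 4 named genes had a library set apart from the other 3 by Dixon's test at the 95% level. Chance gives this in about 1 in 20 groups. How many groups were tested is not given here, so the 4 are not read as more than chance gives. RPL36A was at 26.2 CPM in input replicate 3, with the others from 27.9 to 28.2 CPM, and RPS10 was at 11.2 CPM in input replicate 2, with the others from 12.7 to 12.9 CPM. On the beads, RPS4X was at 882 CPM and RPL15 at 957 CPM in replicate 1, below 1172 and 1254 CPM in the next lowest libraries. Bead replicate 1 also had the lowest share of ribosomal protein counts of the 4, at 3.44%.

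The enrichment differed between arms by a test of the difference for 3 members in LMNB1 s6G against unlabelled (among them RPL39 at -2.22 and RPL34 at -2.03 on the log2 scale). It differed for 11 members in LMNB1 against NES, led by RPL36A (3.73), RPS10 (2.03) and RPL26 (1.63).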

How the results depend on the processing

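In ERM 75 members were called lower under every setting run, except 74 of 74 tested with ERM replicates 1 and 2 (75 of 77 were called with no filter), and in NES 67 to 75 were. Elsewhere counts of called members moved by over 1.5 times, and the cause was not tested. They are given in the order of the arms and then of the differences. Scaling by total counts gave 54 (MITO s6G), 9 (s4U), 2 (APEX-only) and 18 (unlabelled), 52 and 18 for MITO s6G and s4U against unlabelled, 1 for ERM against NES and 34 for LMNB1 against NES, and turned RPL41 in MITO s6G to -0.85. DESeq2 gave 4, 5, 6 and 25 in the MITO arms, 20, 5 and 19 in the LMNB1 arms, 11, 21, 43 and 1 for MITO s6G, MITO s4U, LMNB1 s6G and LMNB1 APEX-only against unlabelled, 1 and 28 for ERM and LMNB1 against NES, and 4 and 23 for the LMNB1 s6G and ERM inputs. The replicate block gave 5, 5, 6 and 16 in the MITO arms, 4 and 0 in LMNB1 APEX-only and unlabelled, 10, 18, 3 and 16 for MITO s6G, s4U, APEX-only and LMNB1 s6G against unlabelled, 17 and 32 for ERM and LMNB1 against NES, and 72, 6 and 13 for the LMNB1 s6G, LMNB1 unlabelled and ERM inputs. The labels tie no numbers across arms, and same-numbered inputs correlated at r of at least 0.43 across LMNB1 arms and at -0.60 at the lowest across MITO arms. It changed no other count by that much. RLE scaling gave 16 and 0 in the unlabelled arms, 27 for LMNB1 against NES and 1 for ERM inputs. Only the compared libraries gave 3, 8 and 0 in MITO unlabelled, LMNB1 APEX-only and LMNB1 unlabelled, 0 for LMNB1 s6G against unlabelled, 21 for LMNB1 against NES and 1 for ERM inputs. No filter gave 20, 4 and 25 in the LMNB1 arms, 3, 3 and 37 for MITO s6G, MITO s4U and LMNB1 s6G against unlabelled, 1 for ERM against NES, and 13 and 56 for the LMNB1 and ERM inputs. Without the unlabelled arm LMNB1 s6G and APEX-only had 23 and 3. ERM replicates 1 and 2 gave 3 and 14, and replicates 3 and 4 gave 34 and 72, for ERM against NES and the ERM inputs.

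Leaving out each library in turn gave 0 to 8 (MITO unlabelled), 2 to 21, 0 to 0 and 0 to 27 (LMNB1 s6G, APEX-only, unlabelled), 0 to 5, 0 to 6, 0 to 3 and 0 to 51 for MITO s6G, s4U, APEX-only and LMNB1 s6G against unlabelled, 0 to 1 and 2 to 28 for ERM and LMNB1 against NES, and 0 to 0 for ERM inputs. In these fits a lone library is taken to vary like the others.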
